A study of Mus musculus with 8 samples.

Results

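The genes described are 8 named genes of the skin permeability barrier that make, lengthen, load or oxidise the lipids of the horny layer: Sptlc2, Degs1, Elovl4, Cers3, Ugcg, Abca12, Aloxe3 and Alox12b. They were chosen by gene symbol and not by any measured value. Of these 8 genes, 7 were in the table of hair follicle stem cells (HFSCs), which lists 23861 genes, and the same 7 in the table of epidermal stem cells (EpdSCs), which lists 16231. The expression of Alox12b was not analysed here, and only the promoter search covers it. The barrier genes were followed through 8 bulk RNA-seq libraries of cells sorted from telogen dorsal skin of mice, 2 libraries in each of 4 groups. HFSCs were sorted as CD34+CD49f+Sca-1- cells and EpdSCs as CD34-CD49f+Sca-1+ cells. The WT HFSC libraries came from 2-month-old C57BL/6J mice and the HFSC libraries labelled Msx2-KO from 6-month-old mice, so age and genotype cannot be told apart in HFSCs. Both EpdSC groups, WT and labelled Msx2-KO, were from 6-month-old mice. In each cell type the library names of WT and of Msx2-KO run in different series. Those of HFSCs labelled Msx2-KO and of WT EpdSCs follow on from each other. What the series stand for is not given, so they cannot be told apart from genotype in either cell type. The Msx2-KO allele is a germline change, homozygous in every cell of the mouse, in which a neo cassette was placed upstream of exon 2 of Msx2, and none of the groups was treated. The labels do not say whether the 2 libraries of a group came from separate animals, so p-values measure only the spread between these libraries.

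The outer barrier of the skin is built from ceramides, fatty acids and cholesterol that keratinocytes make as they leave the basal layer. A sphingoid base is joined to a fatty acid of unusual length, the product is capped with glucose and pumped into lamellar granules, and after secretion the glucose is taken off again. Lipoxygenases oxidise the linoleate carried by the longest ceramides, a step needed before these can be bound to the protein envelope of the dead cell, and inherited loss of Abca12, Cers3, Elovl4, Alox12b or Aloxe3 function causes scaling skin disease or a failed barrier. Basal stem cells make little of this machinery, and its expression rises in the spinous and granular layers above them.

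Msx2, the homeobox transcription factor whose part in hair shedding and renewal the study asked about, had overlapping groups in both cell types. Its HFSC counts were 53 and 7 in WT against 40 and 18 in the Msx2-KO-labelled libraries, and its normalized EpdSC values were 58.5 and 85.4 in WT against 150 and 22.2. The counts are for the whole gene, so they do not show whether the altered allele was read. Total counts ran from 3132974 to 11016659 in the HFSC libraries and, regained from the normalized values, from 15213603 to 21092705 in the EpdSC libraries. Mitochondrial ribosomal RNA took 8.94% to 53.2% of HFSC counts and 0.0730% to 23.5% of EpdSC values, with 49.4% and 53.2% in the 2 HFSC libraries labelled Msx2-KO and 0.0730% in EpdSC Msx2-KO replicate 1. The part of this RNA in the differences between groups was not tested. In bulk samples of this kind, fewer cells of a type and less RNA per cell cannot be told apart.

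Abca12 was the barrier gene with the clearest difference between genotypes, and it went in opposite directions in the 2 kinds of stem cell. In HFSCs its mean level was 12.2 times that of WT in the Msx2-KO-labelled libraries, which did not pass the threshold, and in EpdSCs it fell 15.5-fold, the 1 call among the 7 genes. Aloxe3 was lower in the Msx2-KO-labelled libraries of both cell types and had no counts in 3 of those 4 libraries. Degs1 and Ugcg were lower in HFSCs and higher in EpdSCs, with groups that did not overlap. Of the genes tested in both cell types 8.58% had this order, and groups did not overlap for 51.1% of HFSC and 72.3% of EpdSC genes. Elovl4 was higher in both, in HFSCs mainly through Msx2-KO replicate 2. The differences of Degs1, Ugcg and Elovl4 did not pass the threshold in either cell type.

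**Figure D1:**
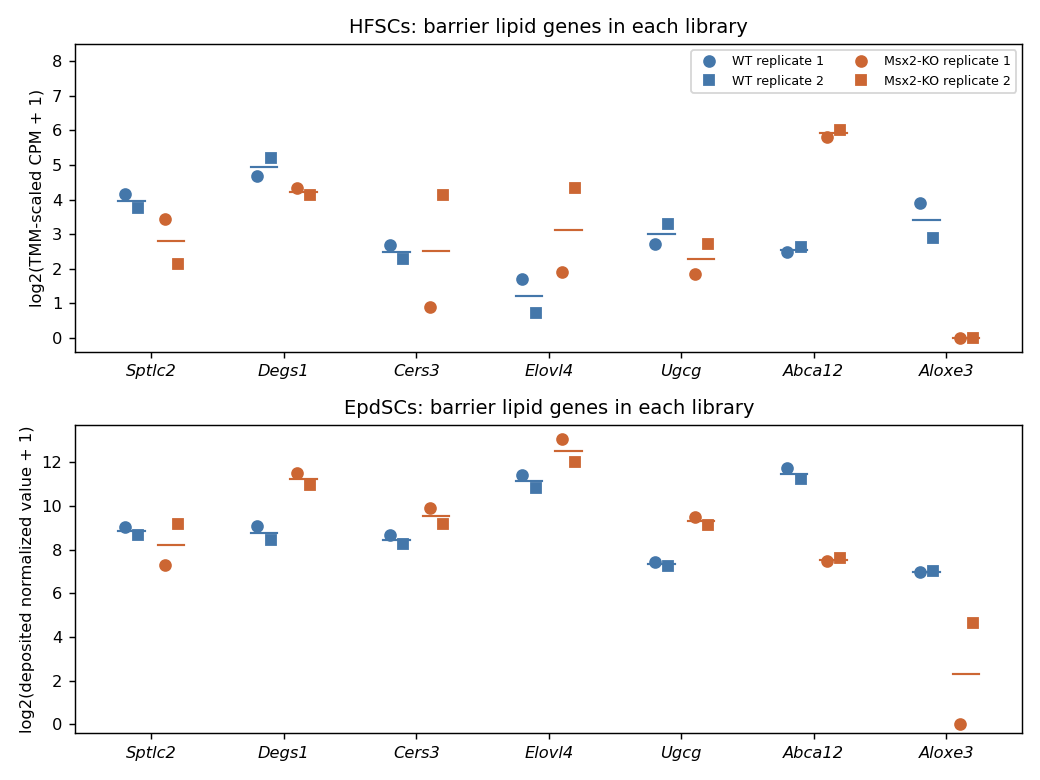
Level of each of the 7 barrier lipid genes in each library, on a log2 scale with 1 added, as TMM-scaled CPM in HFSCs (top; CPM is a gene's count as a share of the library, on a fixed common total) and as the authors' normalized value in EpdSCs (bottom). Points are libraries and short lines the mean of the 2 log2 values of a group; the Abca12 groups lie far apart in both panels and in opposite order, while the 2 HFSC libraries labelled Msx2-KO lie far apart from each other for Cers3 and Elovl4.

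Abca12 (chr1:71242276-71414910 on the minus strand of GRCm38) encodes the pump that loads glucosylceramides into lamellar granules. In HFSCs its level in CPM, the count of a gene scaled to 1 common library size, was 4.54 and 5.17 in WT against 55.2 and 63.7 in the Msx2-KO-labelled libraries, from 34, 16, 507 and 300 counts. Both Msx2-KO-labelled libraries lay above both WT libraries, and the libraries within a group were close. The ratio of means was 12.2 and the log2 fold change was 3.61 ± 0.39 (SE, n = 2 per group), with an adjusted p of 0.143 by edgeR's quasi-likelihood test. In the same fit 0.0% of the 14422 genes tested were called at an adjusted p under 0.05 and a fold change over 2, 0 of 14422, while 2614 genes (18.1%) had an unadjusted p under 0.05, among them Abca12 and Aloxe3. DESeq2 called 674 genes (4.67%) and limma-trend 1407 (9.76%), and each called Abca12 and Aloxe3, with adjusted p for Abca12 of 2.68e-05 by DESeq2 and 0.0327 by limma-trend. With a library left out, the spread in the edgeR fit comes from 1 group alone. In these fits the log2 fold change of Abca12 was 3.50 to 3.70, and Abca12 was called in some of them but not in all. Its log2 fold change stayed between 2.77 and 3.70 in all alternatives run.

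In EpdSCs the normalized value of Abca12 was 3360 and 2397 in WT against 177 and 195 in the Msx2-KO-labelled libraries. The 2 groups did not overlap, and WT was higher, the reverse of the order in HFSCs. The log2 fold change on log2(value + 1) was -3.93 ± 0.49 (SE), and the fall passed the threshold with an adjusted p of 0.0316 by limma. Of all 16231 EpdSC genes 9.35% were called, 1.57% higher and 7.78% lower, so a fall is the commoner call in this table. The call was lost when WT replicate 1 (adjusted p = 0.302 by limma) or WT replicate 2 (0.27) was left out, and with a replicate block (0.0541). It was also lost when counts were regained from the normalized values and tested with edgeR (0.0604), which called 0.0% of genes (5180 had an unadjusted p under 0.05), while DESeq2 on those counts, which called 28.4% of genes, gave 1.38e-08. Without Msx2-KO replicate 1 or 2 the EpdSC fit called 6099 and 10376 genes, Abca12 among them. No test joined the 2 cell types, since their tables were normalized separately, so the opposite directions were not tested against each other. Of the 13151 genes tested in both tables, 16.5% had groups that did not overlap and lay in opposite orders in the 2 cell types, 7.97% in the order of Abca12 and 8.58% in the other.

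**Figure D2:**
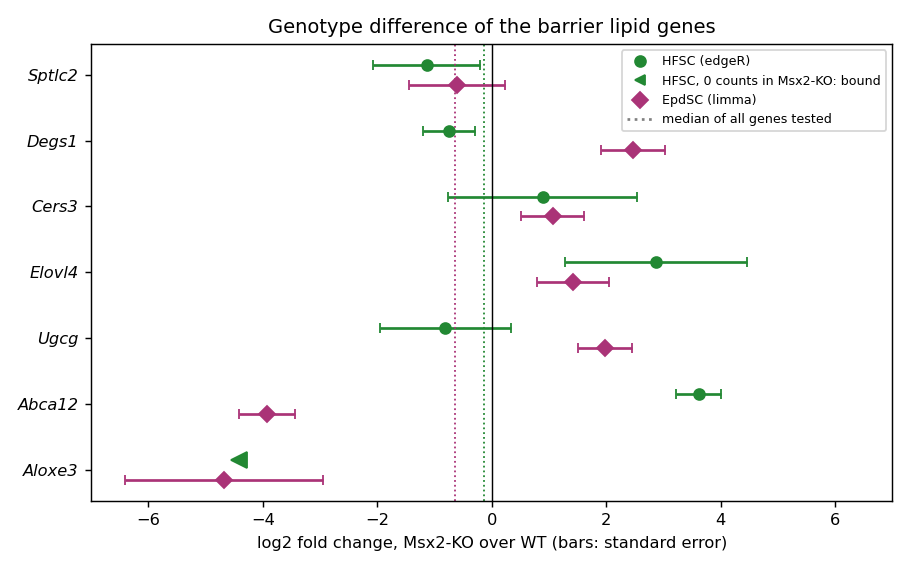
Log2 fold change of the 7 genes, Msx2-KO-labelled libraries over WT, with standard errors, from edgeR in HFSCs (circles) and limma in EpdSCs (diamonds), with dotted lines at the medians of all genes tested (-0.14 and -0.64). Abca12 lies at 3.61 in HFSCs and -3.93 in EpdSCs; the triangle for Aloxe3 in HFSCs marks a bound, since it had no counts in the Msx2-KO-labelled libraries.

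Stretches of the Abca12 and Cers3 promoters are shown, the former because Abca12 differed most clearly and the latter because it holds the homeodomain core to which Msx-type proteins bind. Each is the 250 bases before the RefSeq transcription start on GRCm38.p6, written from 5′ to 3′ on the gene's own strand, with exact matches to 4 motifs, sought on both strands, in capitals. The motifs were the homeobox core TAATTG, the AP-1 element TGANTCA, the KLF-type element CACCC and the Smad element GTCTG.
Abca12 promoter, chr1:71414911-71415160, minus strand: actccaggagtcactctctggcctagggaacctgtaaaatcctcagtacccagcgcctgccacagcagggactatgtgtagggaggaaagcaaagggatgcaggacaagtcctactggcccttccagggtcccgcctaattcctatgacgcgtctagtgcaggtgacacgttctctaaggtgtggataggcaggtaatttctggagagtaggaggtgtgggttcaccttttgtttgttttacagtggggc
Cers3 promoter, chr7:66743254-66743503, plus strand: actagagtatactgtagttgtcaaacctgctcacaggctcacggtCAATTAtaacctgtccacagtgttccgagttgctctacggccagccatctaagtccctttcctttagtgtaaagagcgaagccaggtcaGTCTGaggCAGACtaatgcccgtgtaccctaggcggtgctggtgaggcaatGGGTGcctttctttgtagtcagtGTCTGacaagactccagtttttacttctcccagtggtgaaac
The Abca12 stretch held none of the 4 motifs. The Cers3 stretch held the homeobox core once, at -205 from the start, the KLF-type element once and the Smad element at 3 places. RefSeq promoters were matched for 7 of the 8 genes, all but Aloxe3, and the homeobox core was in 2 of these 7, Cers3 and Sptlc2, against 7.17% of the 32851 promoters in the table. The KLF-type element was in 4 of the 7 against 52.0% of all promoters, the Smad element in 4 of the 7 against 42.2%, and the AP-1 element in 0 of the 7 against 6.75%. These matches are letters in a window and not sites shown to be bound.

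Sptlc2 (chr12:87305058-87388355) encodes a subunit of serine palmitoyltransferase, the enzyme that starts sphingoid base synthesis. In HFSCs its level was 16.8 and 12.6 CPM in WT against 9.91 and 3.40 CPM in the Msx2-KO-labelled libraries, a log2 fold change of -1.14 ± 0.94 (SE) with an adjusted p of 0.688 by edgeR. Both Msx2-KO-labelled libraries were below both WT libraries, as were 33.5% of all HFSC genes tested. In EpdSCs its normalized value was 523 and 400 in WT against 155 and 576 in the Msx2-KO-labelled libraries. The EpdSC groups overlapped, the 2 Msx2-KO-labelled libraries lying on either side of WT, and the log2 fold change was -0.61 ± 0.83 (adjusted p = 0.611 by limma). It turned to 0.33 without Msx2-KO replicate 1 and was -1.55 without Msx2-KO replicate 2. In HFSCs the log2 fold change was -2.15 without Msx2-KO replicate 1.

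Degs1 (chr1:182275772-182282804, minus strand) encodes the desaturase that turns dihydroceramide into ceramide. Its HFSC level was 24.7 and 35.6 CPM in WT against 19.1 and 16.6 CPM in the Msx2-KO-labelled libraries, lower in both, with a log2 fold change of -0.76 ± 0.45 and an adjusted p of 0.538 by edgeR. In EpdSCs the normalized value was 547 and 341 in WT against 2884 and 1992 in the Msx2-KO-labelled libraries. Both Msx2-KO-labelled libraries lay several-fold above both WT libraries, an order that 27.8% of EpdSC genes showed. The log2 fold change was 2.47 ± 0.55, just short of the threshold with an adjusted p of 0.0752 by limma, and 2.54 with TMM factors. Degs1 was called by limma with a pseudocount of 10 (adjusted p = 0.0491) and with a trended prior spread (0.0425). DESeq2 on regained counts, which called 28.4% of genes, called it too (0.00216). With a library left out its log2 fold change was 2.13 to 2.81.

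Elovl4 (chr9:83778692-83806277, minus strand) encodes the elongase that makes the longest fatty acids of skin ceramides. Its HFSC level was 2.27 and 0.647 CPM in WT against 2.72 and 19.3 CPM in the Msx2-KO-labelled libraries, from 17, 2, 25 and 91 counts. Msx2-KO replicate 1 was barely above WT replicate 1, and the difference came from Msx2-KO replicate 2. The log2 fold change was 2.87 ± 1.60 (adjusted p = 0.497 by edgeR), 0.75 without Msx2-KO replicate 2 and 3.50 without Msx2-KO replicate 1. In EpdSCs the normalized value was 2762 and 1798 in WT against 8448 and 4185 in the Msx2-KO-labelled libraries, higher in both. There the log2 fold change was 1.42 ± 0.63 (adjusted p = 0.195 by limma), and 1.92 without Msx2-KO replicate 2.

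Cers3 (chr7:66743504-66823691) encodes the ceramide synthase that uses these very long fatty acids. Its HFSC level was 5.47 and 3.88 CPM in WT against 0.871 and 16.6 CPM in the Msx2-KO-labelled libraries, with the 2 Msx2-KO-labelled libraries on either side of WT. Its log2 fold change of 0.89 ± 1.64 (adjusted p = 0.901 by edgeR) had no settled sign. It was 1.76 without Msx2-KO replicate 1 (adjusted p = 0.0289 by edgeR) and -2.43 without Msx2-KO replicate 2 (0.0296), and -0.16 when library totals were used for scaling. In EpdSCs its normalized value was 402 and 305 in WT against 954 and 568 in the Msx2-KO-labelled libraries. Both Msx2-KO-labelled libraries were higher, with a log2 fold change of 1.07 ± 0.55 (adjusted p = 0.237 by limma), and of 1.44 without Msx2-KO replicate 2.

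Ugcg (chr4:59189257-59222833) encodes the transferase that caps ceramide with glucose before export. Its HFSC level was 5.61 and 8.73 CPM in WT against 2.61 and 5.52 CPM in the Msx2-KO-labelled libraries. The HFSC groups almost touched, the lower WT value being just above the higher value labelled Msx2-KO, and the log2 fold change was -0.82 ± 1.15 (adjusted p = 0.855 by edgeR). In EpdSCs its normalized value was 170 and 151 in WT against 714 and 563 in the Msx2-KO-labelled libraries. The EpdSC groups were well apart, with a log2 fold change of 1.98 ± 0.48 and an adjusted p of 0.0834 by limma. With a library left out this log2 fold change was 1.81 to 2.15. DESeq2 on regained counts, which called 28.4% of genes, called Ugcg (adjusted p = 0.0119).

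Aloxe3 (chr11:69125896-69149115) encodes the epidermal lipoxygenase that acts as a hydroperoxide isomerase on the product of Alox12b, its neighbour on the chromosome. In HFSCs it had 105 and 20 counts in WT, 14.0 and 6.47 CPM, and 0 counts in both Msx2-KO-labelled libraries. Nuclear protein-coding counts stood at 3304495 and 1497270 in WT against 3705738 and 1846221 in the Msx2-KO-labelled libraries, so depth by this measure was similar in the 2 groups. Genes with at least 1 count were fewer in the HFSC libraries labelled Msx2-KO, 11409 and 14251 against 22447 and 19595 in WT. The EpdSC numbers were 12716 and 15165 against 15790 and 15832 in WT. The part of this difference in the zeros of Aloxe3 was not tested. Against a floor of 3 counts per library, with the zeros taken as they stand, the HFSC level of Aloxe3 was at least 21.3-fold lower in the Msx2-KO-labelled libraries. The adjusted p was 0.145 by edgeR, 0.0132 by DESeq2 and 0.0397 by limma-trend. In EpdSCs its normalized value was 123 and 128 in WT against 0 and 23.6 in the Msx2-KO-labelled libraries. The 2 WT values were alike and both Msx2-KO-labelled libraries were lower, but the latter differed from each other, and the log2 fold change of -4.68 ± 1.74 did not pass the threshold (adjusted p = 0.153 by limma). This EpdSC log2 fold change was -2.37 without Msx2-KO replicate 1 and -6.99 without Msx2-KO replicate 2.

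Over the 7 genes, in HFSCs 2 had both Msx2-KO-labelled libraries above both WT libraries, 4 had both below and 1 overlapped, against 17.5% and 33.5% of all genes tested with the 2 orders and 51.1% with groups that did not overlap. In EpdSCs the 7 genes split into 4 higher, 2 lower and 1 overlapping, against 27.8% and 44.5% of all genes and 72.3% without overlap, and 3 had an unadjusted p under 0.05 by limma, against 35.3% of all genes. Their median log2 fold change was -0.76 in HFSCs and 1.07 in EpdSCs, beside medians of all genes of -0.14 and -0.64. The median of the 7 was -0.37 in HFSCs without Msx2-KO replicate 1 and 0.69 in EpdSCs without Msx2-KO replicate 1. Scaling by library totals moved the median of all HFSC genes from -0.14 to -1.002 and that of the 7 genes to -1.52.

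Per length and on a common scale, CPM of the 12011 nuclear protein-coding genes in both tables (shared CPM) per kilobase of exon, the order of the 7 genes differed between groups. In WT HFSCs Degs1 was at the top with 25.5 ± 4.85 (SD, n = 2), and Abca12 at the bottom with 0.724 ± 0.0185. Between them the ranges of neighbours overlapped from Sptlc2 (4.04) through Aloxe3 (3.61) and Cers3 (3.21) to Ugcg (3.01), with Elovl4 lower at 1.10 and overlapping Abca12, since it was at 1.74 and 0.451. In HFSCs labelled Msx2-KO, Degs1 was again first with 17.5, and Abca12 was second with 10.3 ± 1.30. Elovl4 (9.43), Cers3 (6.95), Sptlc2 (2.08) and Ugcg (2.01) followed with overlapping ranges, and Aloxe3 was at 0.

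In WT EpdSCs Elovl4 led with 75.3, followed by Abca12 with 19.4 ± 4.58 and Degs1 with 17.1, whose ranges overlapped, and then by Cers3 (10.9), Sptlc2 (5.68), Ugcg (3.08) and Aloxe3 (1.96), each apart from its neighbour. In EpdSCs labelled Msx2-KO, Elovl4 stayed first with 120 and Degs1 was second with 56.7. Cers3 (13.8), Ugcg (7.54) and Sptlc2 (3.34) came next, and Abca12, at 0.810 ± 0.378, was near the bottom with a range that overlapped that of Sptlc2. Aloxe3 was last with 0.151. On this scale the Abca12 level of HFSCs labelled Msx2-KO, 9.35 and 11.2, lay between those of WT EpdSCs, 22.7 and 16.2, and EpdSCs labelled Msx2-KO, 0.542 and 1.08, and the last were close to WT HFSCs, 0.711 and 0.737. These are levels set side by side across tables that were normalized separately, with no test.

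**Figure D3:**
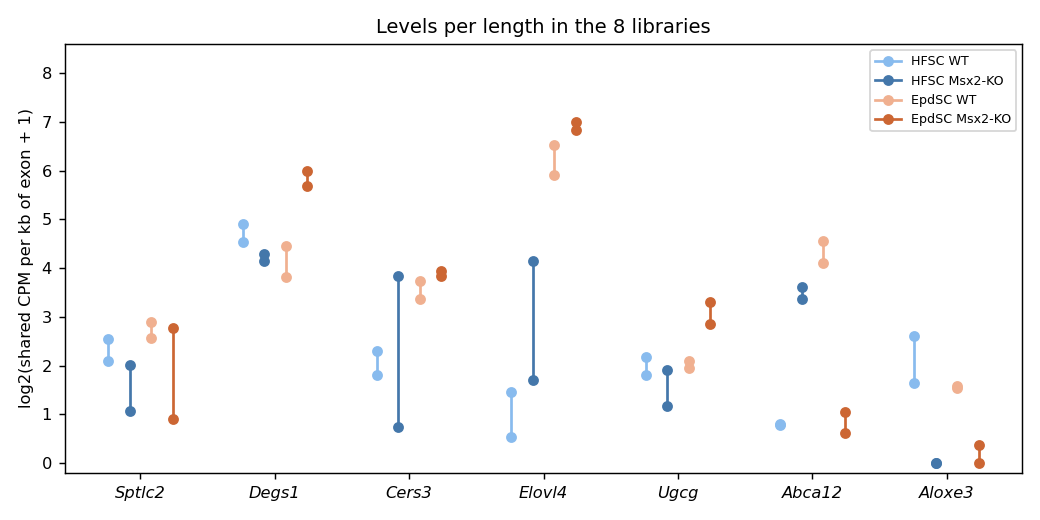
Level per kilobase of exon of each gene in the 8 libraries, on a log2 scale with 1 added; the 2 joined points are the libraries of a group. Elovl4 is highest in both EpdSC groups and Degs1 in both HFSC groups, and Abca12 is low in WT HFSCs and in EpdSCs labelled Msx2-KO.

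Most markers of the suprabasal epidermis, the layers where barrier lipids are normally made, differed in the same directions as Abca12. In HFSCs 9 of the 11 suprabasal markers tested, of 12 listed, had a positive log2 fold change, 8 with both Msx2-KO-labelled libraries above both WT, beside 17.5% of all genes, and the median of the 11 was 3.58. The negative ones were Calml3 (-0.66), with both Msx2-KO-labelled libraries below both WT, and Sbsn (-0.37), whose groups overlapped. The summed level of the 12 markers was 1412 and 1312 shared CPM in the WT HFSC libraries and 3281 and 9744 in those labelled Msx2-KO, so it was highest in Msx2-KO replicate 2, the library in which Elovl4 and Cers3 were also highest. Lor was at 0 in both WT HFSC libraries and in Msx2-KO replicate 1. In EpdSCs all 12 had a negative log2 fold change, 8 with lower groups that did not overlap, beside 44.5% of all genes, and 4 called lower, Dsc1, Ivl, Lgals7 and Sbsn, beside 7.78% of all genes. Groups overlapped for Dsg1a (-0.004), Lor (-0.08), Krtdap (-0.12) and Dmkn (-0.93), and the first 3 of these log2 fold changes were near 0. The EpdSC median of the 12 was -2.48, against -0.64 for all genes. Their summed level was 32170 and 23270 shared CPM in the WT EpdSC libraries and 5204 and 6994 in those labelled Msx2-KO, with Flg at 0 in Msx2-KO replicate 2. The part of these cells in the Abca12 difference was not tested.

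The ratio of Abca12 to the suprabasal sum differed between the groups as well. Scaled to a suprabasal sum of 1000, the level of Abca12 was 7.45 and 8.32 in WT HFSCs, 42.2 and 17.0 in HFSCs labelled Msx2-KO, 10.4 and 10.3 in WT EpdSCs, and 1.54 and 2.28 in EpdSCs labelled Msx2-KO. The groups did not overlap in either cell type. In WT HFSCs the most abundant markers of the sum were Calml3 (245 and 210 CPM) and Sbsn (112 and 170 CPM). Neither was higher in HFSCs labelled Msx2-KO (134 and 153 CPM, and 61.9 and 156 CPM). Krt10 was at 34.8 and 18.7 CPM in WT against 404 and 1625 CPM there, so the make-up of the sum differed between the groups. No ratio to another set of markers was computed. The order was the other way for Elovl4 in EpdSCs, with 8.57 and 7.73 in WT against 73.7 and 49.0 in the Msx2-KO-labelled libraries. Degs1 (1.70 and 1.47 against 25.2 and 23.3), Ugcg and Cers3 were also higher there, while Aloxe3 was lower and Sptlc2 overlapped. The sum, by which these levels are divided, was itself lower in EpdSCs labelled Msx2-KO. In HFSCs the ratio of Elovl4 to the suprabasal sum was 3.73 and 1.04 in WT against 2.08 and 5.16 in the Msx2-KO-labelled libraries, and these groups overlapped.

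Sebaceous gland markers, and 4 of the 5 infundibulum markers, were higher along with Abca12 in HFSCs. All 8 sebaceous markers tested, of 11 listed, were higher in both HFSC libraries labelled Msx2-KO, beside 17.5% of all genes. The summed level of the 5 that both tables hold was 91.9 and 78.2 shared CPM in WT against 3461 and 2614 in those labelled Msx2-KO. The sum of the 5 infundibulum markers was 434 and 594 shared CPM in WT HFSCs and 3643 and 3252 in those labelled Msx2-KO, with Sostdc1 the 1 marker that was not higher (log2 fold change -0.32, groups overlapping). In EpdSCs the sebaceous sum was 390 and 467 shared CPM in WT against 1081 and 842 in the Msx2-KO-labelled libraries, the reverse of the order of Abca12, and 2 of the 5 sebaceous markers tested were positive and 3 negative. Of the 5 infundibulum markers in EpdSCs 4 were negative, and the median was -2.66. Cst6, Defb6 and Krt17 were lower without overlap, beside 44.5% of all genes, and Sostdc1 was higher without overlap, beside 27.8%. The sum of the 5 was 680 and 699 shared CPM in WT against 964 and 366 in the Msx2-KO-labelled libraries, with overlap. The 8 HFSC markers all had negative log2 fold changes in HFSCs, 7 with both Msx2-KO-labelled libraries below both WT, beside 33.5% of all genes, with a median of -0.63, and Cd34, the marker of the sort, was at 491 and 436 CPM in WT against 177 and 144 CPM in the Msx2-KO-labelled libraries. Basal keratinocyte markers in HFSCs split into 2 positive and 4 negative, and in EpdSCs into 5 positive and 2 negative. Immune markers were lower in EpdSCs labelled Msx2-KO, with 5 of the 5 tested negative and 3 summed markers at 56.7 and 5.03 shared CPM in WT against 0.116 and 0.276 in those labelled Msx2-KO, Ptprc at 0 in both of the latter and also in WT replicate 2. In HFSCs the same sum was 20.4 and 10.2 shared CPM in WT against 50.5 and 27.1 in those labelled Msx2-KO. There Cd74 was higher without overlap, while Ptprc and H2-Aa were at 0 in both Msx2-KO-labelled libraries. Fibroblast and melanocyte markers were not in the EpdSC table. In HFSCs the 2 fibroblast markers tested were lower in the Msx2-KO-labelled libraries, beside 33.5% of all genes. Of the 3 melanocyte markers tested there, 2 were lower and 1 overlapped. Of the 5 endothelial markers, Pecam1 was the 1 in the EpdSC table, at 8.67 and 4.74 in WT against 24.2 and 18.2 in the Msx2-KO-labelled libraries. In HFSCs it was at 4.54 and 3.88 CPM in WT against 0 and 3.61 CPM in the Msx2-KO-labelled libraries. The part of any of these cell types in the differences was not tested.

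**Figure D4:**
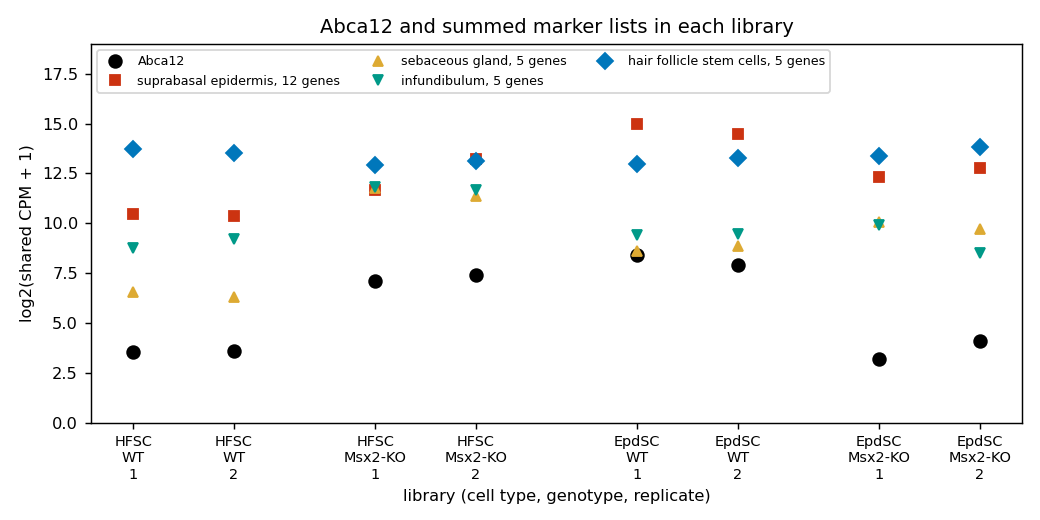
Abca12 and the summed levels of 4 marker lists in each library, as log2 of shared CPM with 1 added. Abca12 and the suprabasal sum are both higher in HFSCs labelled Msx2-KO than in WT HFSCs and both lower in EpdSCs labelled Msx2-KO than in WT EpdSCs.

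The other genes of ceramide synthesis and turnover, a list of 39, did not differ in 1 direction. In HFSCs 34 were tested, 19 with positive and 15 with negative log2 fold changes, 10 with groups that were higher and 7 lower in the Msx2-KO-labelled libraries, beside 17.5% and 33.5% of all genes. Of these 34, 0 were called and 7 had an unadjusted p under 0.05, beside 18.1% of all genes. Their median was 0.38, but -0.40 with library totals, -0.11 by limma-trend, 0.17 without WT replicate 2 and -0.49 without Msx2-KO replicate 2. In EpdSCs 33 were tested, 13 with higher and 12 with lower groups, beside 27.8% and 44.5% of all genes. Of these 33, 1 was called, Cers4, beside 9.35% of all genes, and 10 had an unadjusted p under 0.05, beside 35.3%. Their median was 0.51, but 0.33 without WT replicate 2 and -0.08 without Msx2-KO replicate 2.

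Among the genes of that list in HFSCs, the largest positive difference was that of Fa2h, the hydroxylase of ceramide fatty acids, at 0.534 and 0 CPM in WT against 86.9 and 44.1 CPM in the Msx2-KO-labelled libraries (log2 fold change 7.50, adjusted p = 0.143 by edgeR). Sgpp1, a phosphatase of sphingosine phosphate, stood at 23.8 and 32.6 CPM against 125 and 107 CPM, and Sptssa, a small subunit of serine palmitoyltransferase, at 9.74 and 8.40 CPM against 43.8 and 20.4 CPM. The lower ones were Kdsr, the reductase that follows serine palmitoyltransferase, with a log2 fold change of -1.63, Sgms1, a sphingomyelin synthase, with -1.49, and Col4a3bp, which carries ceramide to the Golgi, with -1.14. These 5 had adjusted p values of 0.143 to 0.403 by edgeR, none past the threshold. DESeq2 and limma-trend called Fa2h and Sgpp1. With a library left out, the log2 fold change was 6.80 to 11.5 for Fa2h, 1.81 to 2.20 for Sgpp1 and 1.13 to 2.25 for Sptssa. It was -1.80 to -1.55 for Kdsr, -1.38 to -0.96 for Col4a3bp and -2.62 to -0.88 for Sgms1.

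In EpdSCs Cers4, a ceramide synthase of adult epidermis and sebaceous gland, fell from 24.9 and 44.6 in WT to 1.27 and 0.754 in the Msx2-KO-labelled libraries, a log2 fold change of -4.10 ± 0.56 (adjusted p = 0.0360 by limma) on low values. The call was lost with a pseudocount of 10 (adjusted p = 0.0583 by limma), without WT replicate 1 (0.288) or WT replicate 2 (0.308), and by edgeR on regained counts (0.0716). In HFSCs the same gene stood at 68.3 and 79.5 CPM in WT against 345 and 96.8 CPM in the Msx2-KO-labelled libraries. Gba2, which encodes a glucosylceramidase, was at 185 and 160 in WT against 0 and 8.76 in the Msx2-KO-labelled libraries, with a log2 fold change of -5.79 and an adjusted p of 0.0734 by limma. Acer1, the alkaline ceramidase of differentiating epidermis, was at 1066 and 651 in WT against 43.7 and 460 in the Msx2-KO-labelled libraries. On the higher side, Sptlc1, the partner subunit of Sptlc2, was at 491 and 544 in WT against 8515 and 3276 in the Msx2-KO-labelled libraries, and Sptssa at 1488 and 1182 against 26277 and 7557. Asah1, the acid ceramidase, was at 305 and 402 in WT against 1641 and 2009 in the Msx2-KO-labelled libraries, with a log2 fold change of 2.37 and an adjusted p of 0.0668 by limma. With a library left out, the EpdSC log2 fold change was -7.44 to -4.15 for Gba2 and -4.22 to -0.85 for Acer1. It was 2.66 to 4.04 for Sptlc1, 2.51 to 4.31 for Sptssa and 2.17 to 2.57 for Asah1. In HFSCs that of Cers4 was 0.36 to 2.22.

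The list of acyl chain synthesis, barrier lipid processing and the other lipoxygenases held 31 genes. Those tested had mostly positive differences in HFSCs, while in EpdSCs their shares lay near those of all genes. In HFSCs 20 were tested and 18 had a positive log2 fold change, 12 with both Msx2-KO-labelled libraries above both WT and 1 with both below, beside 17.5% and 33.5% of all genes tested. The median was 1.27, against -0.14 for all genes, and it was 0.45 with library totals and 0.48 without Msx2-KO replicate 2. Of these 20, 0 were called and 7 had an unadjusted p under 0.05, beside 18.1% of all genes. The low-count filter left out Alox12, with 17 and 5 counts in WT, and Alox5, with 11 and 4, both at 0 in the Msx2-KO-labelled libraries. It also left out Klk5, with 2 and 0 counts in WT against 8 and 42, and Cyp4f39, Pnpla1 and Sdr9c7, whose groups overlapped. Among the tested genes, Elovl3 (1 and 0 counts in WT against 49 and 77) and Klk7 (6 and 0 against 192 and 69) had almost no WT counts. In EpdSCs 26 were tested, 10 with a positive and 16 with a negative log2 fold change, 7 with higher and 11 with lower groups, beside 27.8% and 44.5% of all genes, and 9 with an unadjusted p under 0.05, beside 35.3%. The EpdSC median was -0.54, against -0.64 for all genes, and ran from -0.88 without Msx2-KO replicate 2 and -0.83 without WT replicate 2 to -0.32 without Msx2-KO replicate 1. Elovl3, of this list, is also among the sebaceous markers.

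In HFSCs Elovl6, an elongase of shorter fatty acids, was at 19.2 and 28.1 CPM in WT against 561 and 390 CPM in the Msx2-KO-labelled libraries, a log2 fold change of 4.33 ± 0.38 (adjusted p = 0.143 by edgeR), and DESeq2 gave an adjusted p of 2.49e-22. In EpdSCs its groups overlapped, with 459 and 476 against 112 and 483. Alox12e, another epidermal lipoxygenase, lay in the same order as Abca12 in both cell types. It was at 37.2 and 21.3 CPM in WT HFSCs and 376 and 237 CPM in those labelled Msx2-KO, and at 4039 and 2888 in WT EpdSCs and 191 and 719 in those labelled Msx2-KO, with log2 fold changes of 3.38 ± 0.45 (adjusted p = 0.143 by edgeR) and -3.20 ± 0.85 (adjusted p = 0.0950 by limma). Hacd3, a dehydratase of the elongation cycle, was at 16.7 and 21.3 CPM in WT HFSCs and 137 and 23.6 CPM in those labelled Msx2-KO, so that its difference came mostly from replicate 1. With a library left out, the HFSC log2 fold change was 4.03 to 4.57 for Elovl6, 2.95 to 3.82 for Alox12e and 0.30 to 2.86 for Hacd3. In EpdSCs that of Alox12e was -4.15 to -2.25.

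The 1 EpdSC call in this list was Alox5, the lipoxygenase of leukotriene synthesis in immune cells, at 26.0 and 10.4 in WT and listed at 0 in both Msx2-KO-labelled libraries (adjusted p = 0.0438 by limma), and the call was lost with a pseudocount of 10 (0.103), without WT replicate 1 (0.305), WT replicate 2 (0.268) or Msx2-KO replicate 1 (0.0563), and on regained counts by edgeR (0.0815) and DESeq2 (0.0647). Immune markers were lower in the same libraries, as given above. Abca7, a lipid transporter related to Abca12, was at 473 and 551 in WT EpdSCs and 3.82 and 55.3 in those labelled Msx2-KO, with a log2 fold change of -4.96, and Klk5, a protease of the horny layer, at 139 and 160 against 2.55 and 25.6, with -3.95. The higher ones were Hsd17b12, a reductase of fatty acid elongation, with a log2 fold change of 2.10, Abhd5, the cofactor of lipid release that is needed for the barrier, with 1.65, and Acsl1, which activates long fatty acids, with 1.48. Their adjusted p values lay between 0.0885 and 0.170 by limma. With a library left out, the log2 fold change was -6.73 to -3.18 for Abca7 and -5.40 to -2.50 for Klk5. It was 1.74 to 2.45 for Hsd17b12, 1.49 to 1.80 for Abhd5 and 1.10 to 1.85 for Acsl1. Hsd17b12 was higher in HFSCs too, at 17.6 and 14.2 CPM in WT against 53.6 and 79.0 CPM in the Msx2-KO-labelled libraries.

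**Figure D5:**
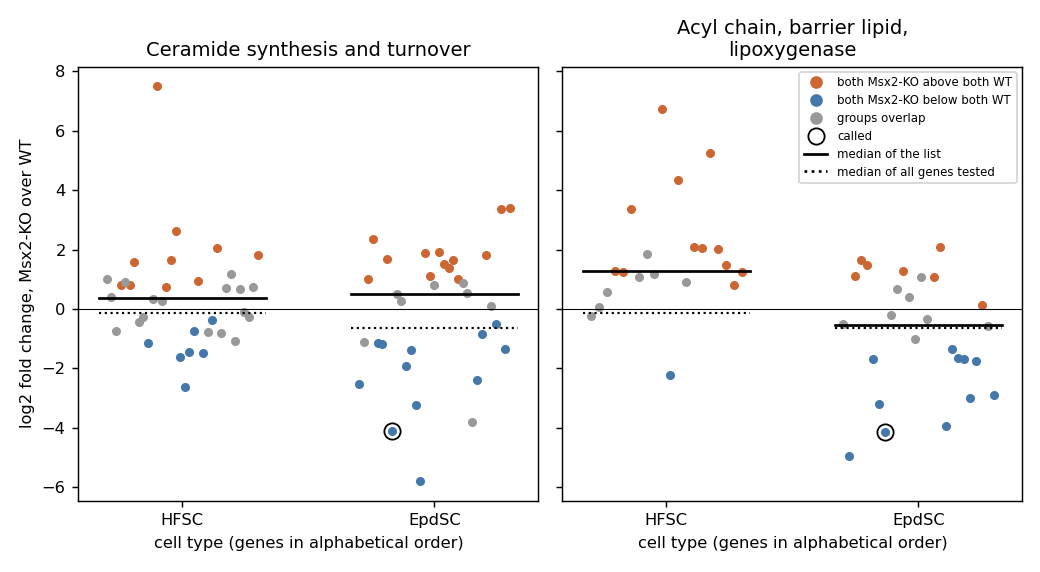
Log2 fold changes, Msx2-KO-labelled libraries over WT, of the tested genes of the 2 further lists in each cell type; colours mark whether the groups overlapped, rings the called genes (Cers4 and Alox5, both in EpdSCs), solid lines the list median and dotted lines the median of all genes tested. In HFSCs 18 of the 20 tested genes of the acyl chain list lie above 0.

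Across the 8 libraries the genes whose levels were most like a barrier gene, by Pearson r of log2(shared CPM + 1) among 10534 genes, are given as a description, since the points fall in 4 groups and share library depth. Acsl1 was nearest to Elovl4 (r = 0.995), followed by Ptgfrn (0.986) and Hdac1 (0.985). Grhl1, which encodes a transcription factor of epidermal differentiation, was nearest to Abca12 (0.987), followed by Gm24447 (0.980) and Rps18-ps4 (0.977). The genes nearest to Ugcg were Cggbp1 (0.988), Tnfaip1 (0.985) and Ccng1 (0.982), to Cers3 Popdc3 (0.982), to Aloxe3 Gss (0.980), to Sptlc2 Scarb2 (0.972) and to Degs1 Eef1akmt2 (0.952), the weakest of the 7.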

How the data were processed

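Bulk RNA-seq libraries were made with a stranded SMARTer kit for total RNA from HFSCs and EpdSCs sorted from telogen dorsal skin. Reads were aligned with STAR 2.7.3a in Partek to GRCm38/mm10 with GENCODE annotation, and the use of strand in counting is not given in the sources used here. The HFSC table holds estimated counts, deposited by the authors with no scaling. The EpdSC table holds a normalized signal, which the authors made by scaling counts with 1 factor per library. A single count is worth 1.08 and 0.948 in its WT columns against 1.27 and 0.674 in its Msx2-KO columns. Tables of fold changes and p-values by the authors were not used. Value columns not mapped to a sample numbered 0.

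HFSC counts were rounded, and edgeR 4.0.16 (quasi-likelihood, TMM factors) was applied to the 14422 genes left by its low-count filter, which all 7 barrier genes passed. EpdSC values entered limma 3.58.1 as log2(value + 1), with all 16231 genes. Calls required a Benjamini-Hochberg adjusted p under 0.05 and a fold change over 2. An exact permutation test with 2 libraries per group cannot go below a two-sided p of 0.333 and was not used. Alternatives were DESeq2 1.42.0, RLE factors, library totals, TMM factors for EpdSCs, mitochondrial and ribosomal RNA genes left out, other filters on low values, limma-trend with a prior count of 3, pseudocounts of 0.1 and 10, a trended prior spread, the threshold with no minimum fold, a replicate block and each library left out. Gene positions and exon lengths are those of GENCODE M21 on GRCm38 and promoters those of RefSeq.

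The barrier genes and lists were chosen with earlier results of these data known. The further genes named are, in each list, the called genes and, in each cell type, the 3 largest positive and negative log2 fold changes with groups that did not overlap and a mean of at least 20. A gene of the ceramide list that met this rule is counted there but not reported here. Single marker genes were named after their values were seen. R 4.3.3 and Python 3.11.15 with matplotlib 3.10.9 were used.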

Additional observations from a re-analysis of the deposited data

Results flagged for a closer look

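For 8 genes every library labelled Msx2-KO lay on one side of WT in HFSCs and on the other side in EpdSCs. These 8 are barrier genes or further list genes that are named above and were tested in both cell types. Named marker genes were left out of this count, and some, Krt10 among them, had such an order too. An order of this kind was found for 16.5% of the 13151 genes tested in both tables. The named genes were chosen in part for groups that did not overlap, so their number is not read against that share. The difference between the cell types was not tested, because the tables were normalized separately and the WT HFSC mice alone were 2 months old. Of the barrier genes, Abca12 had log2 fold changes of 3.61 in HFSCs and -3.93 in EpdSCs, Ugcg of -0.82 and 1.98, and Degs1 of -0.76 and 2.47. Among the other ceramide genes the values were 1.58 and -4.10 for Cers4, -1.63 and 1.11 for Kdsr, and -1.49 and 1.66 for Sgms1, again HFSCs first. They were 1.66 and -5.79 for Gba2, and the lipoxygenase Alox12e had 3.38 and -3.20. Several HFSC values rested on 1 library. Without Msx2-KO replicate 1 they were 0.36 for Cers4, 0.46 for Gba2, -0.88 for Sgms1 and -0.37 for Ugcg, and without Msx2-KO replicate 2 they were -2.62 for Sgms1 and -1.43 for Ugcg. The EpdSC falls of Abca12 and Cers4 are the calls among these 16 values.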

How the results depend on the processing

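In HFSCs, where edgeR called 0 of the 7 barrier genes and 0 genes in all, DESeq2 called 2 of the 7 and 674 genes, limma-trend 2 and 1407, and a replicate block 1 of the 7 (Abca12, adjusted p = 0.0146 by edgeR) and 231 genes. Library totals called 51 genes and a minimum of 10 counts in every library called 2, neither with a barrier gene, and that minimum dropped Aloxe3, Cers3 and Elovl4. With a library left out, 0 to 5 of the 7 and 132 to 9272 genes were called, the lone library of a group being assumed to vary like the others.

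In EpdSCs, where limma called 1 of the 7 and 1518 genes, a pseudocount of 10 and a trended prior spread called 2 of the 7 (Abca12 and Degs1), the replicate block 0 of the 7 (Abca12, adjusted p = 0.0541 by limma) and 1271 genes, and leaving out a library 0 to 7 of the 7 and 0 to 10376 genes. On regained counts, chosen after seeing the data, edgeR called 0 of the 7 and 0 genes, with 5180 at an unadjusted p under 0.05, and DESeq2 3 of the 7 and 4330 genes. No pairing by replicate number was seen, with deviations of same-numbered libraries correlated at -0.03 in HFSCs and -0.02 in EpdSCs. With 1 pair of deviations per cell type, these values cannot show that the libraries were unpaired.

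The direction turned in HFSCs for Cers3 (-0.16 with library totals, -0.083 by limma-trend, -0.25 with the replicate block, -2.43 to 1.76 with a library left out, the lowest without Msx2-KO replicate 2), Abca7 (-0.76 with library totals, -0.34 to 0.40 with a library left out, negative without WT replicate 1 or Msx2-KO replicate 2) and Sptlc1 (-2.30 to 0.53, positive without Msx2-KO replicate 1), and in EpdSCs, each time without Msx2-KO replicate 1, for Sptlc2 (-1.55 to 0.33), Elovl6 (-2.05 to 0.047) and Sgpp1 (-0.18 to 1.25). The cause was not tested. The median of the ceramide list turned negative in HFSCs with library totals (-0.40), limma-trend (-0.11) and the block (-0.29), and in EpdSCs with mitochondrial and ribosomal RNA genes left out (-0.02). No other named barrier or list gene changed direction under the alternatives run. Marker genes were not followed through the alternatives. Depth limits all 7 barrier genes but Degs1 in HFSCs, where at least 1 library held as few as 2 counts of Elovl4, 8 of Cers3, 16 of Abca12 and Sptlc2, 20 of Aloxe3 (in WT) and 24 of Ugcg.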
